A study of Mus musculus with 12 samples.

Results

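Gene expression was compared in the maxillary process of mouse embryos at embryonic day E11.5 between 3 libraries labelled Srsf3 cKO and 3 control libraries, which were 6 of the 12 libraries of the series. The libraries were grouped by their labels, and every gene of the deposited tables was taken. Of these, 53392 genes were listed and 14254 passed the filter on low counts and were tested. All 6 embryo samples had a 129S4 strain background and were homozygous for a floxed Srsf3 allele. The cKO samples (Srsf3fl/fl;Wnt1-Cre+/Tg) also carried 1 copy of a Wnt1-Cre transgene, and the controls (Srsf3fl/fl;Wnt1-Cre+/+) carried none. The deletion of the floxed sequence and the presence of the transgene therefore came together and cannot be told apart in this design. The labels do not name the Wnt1-Cre line, and they do not say whether embryos were pooled. The tissue was mesenchyme whose covering ectoderm had been digested away with trypsin, and polyadenylated RNA was sequenced.

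The maxillary process is the embryonic swelling from which the upper jaw, the cheek and the palatal shelves grow. Its mesenchyme descends mostly from cranial neural crest, a migratory population that leaves the dorsal neural tube, and it also holds blood vessels, blood cells, macrophages, nerves and mesoderm-derived muscle precursors. Wnt1-Cre drives recombination in the dorsal neural tube and its neural crest offspring, so cells of other origin keep the floxed allele intact. SRSF3 is an SR protein, one of the RNA-binding proteins that select exons during splicing and accompany transcripts to export and translation. Regions of the facial mesenchyme are known by their transcription factors. Dlx1, Dlx2, Lhx6, Lhx8 and Barx1 mark the first arch, Dlx5, Dlx6 and Hand2 its mandibular part, Alx genes the frontonasal region, Foxc1 and Foxc2 the mesenchyme around the eye, and Hox genes the arches behind the first.

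The tissue label was checked against these markers in TPM, a share of all transcripts that is scaled for transcript length. In the controls, Twist1 stood at 680 ± 103 TPM, Prrx1 at 571 ± 48.1, Msx1 at 430 ± 35.3, Barx1 at 287 ± 93.1, Lhx8 at 167 ± 19.7 and Lhx6 at 123 ± 12.3 (SD, n = 3 each). Hoxa2 and Hoxb2, which mark the second arch, had 0 counts in all 6 libraries, and 0 of 15 Hox genes reached the filter. The defining markers of first-arch neural crest mesenchyme were thus present and those of the arches behind it were at or near 0.

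Library totals ran from 15932541 to 27887654 estimated counts. Correlations of log2 levels across genes were 0.965 to 0.984 within groups and 0.942 to 0.975 between them, and no 2 libraries of a group agreed within the noise of counting. Y-linked transcripts were detected in control library 1 and cKO library 1 only. The p-values set the difference between the groups against the spread between samples within a group, an estimate partly shared across genes. cKO library 1 stood apart from the other cKO libraries. It had the highest summed level of endothelial, macrophage, red blood cell and glycolysis genes among the 6 libraries. Its summed level of crest and maxillary transcription factors was the lowest. Many list results, but not all, are therefore given with and without cKO library 1. The gene total of Srsf3 itself was not lower in the libraries labelled cKO, with normalised read counts of 597, 578 and 547 CPM (counts scaled to the library total) in the controls against 468, 669 and 622 in the cKO libraries. The cKO libraries lay on both sides of the controls, and the log2 fold change was 0.03 (SE 0.14, adjusted p 0.954, edgeR quasi-likelihood test). A total over the whole gene does not show whether some of its exons were lost, and exon-level data were not used here. Every direction given for these libraries rests on their labels.

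At a false discovery rate (FDR) of 0.05, 12 of the 14254 genes passed (0.0842%), of which 8 rose (0.0561%) and 4 fell (0.0281%) in the cKO libraries (edgeR quasi-likelihood test, Benjamini-Hochberg). Those that rose were 4 transcription factor genes (Zic2, Zic5, Foxd1 and Pou3f4) together with Itih5, Slc22a23, Agtr2 and Thbd. Those that fell were the histone variant gene H2afv, Rerg, Lrrc4b and Ifitm2. At an FDR of 0.1 there were 36 genes (0.253%), 16 higher (0.112%) and 20 lower (0.14%). An unadjusted p under 0.05 was reached by 12.2% of genes, 6.34% higher and 5.91% lower. The 2 groups did not overlap in 18.1% of genes, 8.76% higher and 9.37% lower in the cKO libraries. The median log2 fold change over all genes was 0.00, and 50.7% of genes were above 0. DESeq2 called 376 genes (2.32% of 16192 with an adjusted p), 222 higher (1.37%) and 154 lower (0.951%), among them the same 12. Limma on log2(TPM + 1) called 12 genes, of which 7 were shared, and did not call Itih5, Rerg, Slc22a23, Agtr2 or Thbd. The count of 12 became 2 without control library 2, 3 without control library 3, 4 without cKO library 2, 6 without control library 1 and 29 without cKO library 1.

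**Figure D1:**
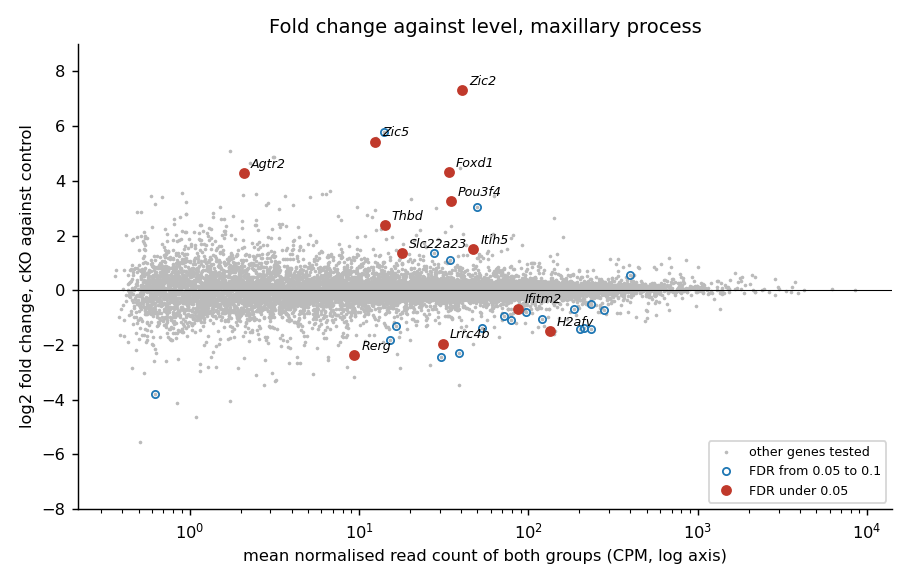
Fold change of each gene (log2, cKO against control) against its mean normalised read count in both groups (CPM, log axis); grey points are genes tested, blue rings have an FDR from 0.05 to 0.1 and red points are under 0.05. Genes with 3 or fewer counts over the controls are not drawn. Zic2 stands at 7.30 and Zic5 at 5.43, while the 4 genes that fell lie between -2.38 and -0.67.

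Of the genes that rose or fell, 4 are shown with the 250 bases that precede their start in RefSeq, to give the sequence context of the loci where the calls were made. The sequences are from the RefSeq promoter table for mouse build GRCm38.p6 and are written 5′ to 3′ on the strand of the gene, with each CpG dinucleotide in capitals. For Zic5, Foxd1 and Pou3f4 the RefSeq start lies inside the gene model whose coordinates are given for the counts, so part of the window lies in that model. Of the 12 genes, 9 matched that table. Zic5 (chr14:122465659-122465908, minus strand), Foxd1 (chr13:98353995-98354244, plus strand), Pou3f4 (chrX:110814129-110814378, plus strand) and H2afv (chr11:6444444-6444693, minus strand) read as follows.
Zic5: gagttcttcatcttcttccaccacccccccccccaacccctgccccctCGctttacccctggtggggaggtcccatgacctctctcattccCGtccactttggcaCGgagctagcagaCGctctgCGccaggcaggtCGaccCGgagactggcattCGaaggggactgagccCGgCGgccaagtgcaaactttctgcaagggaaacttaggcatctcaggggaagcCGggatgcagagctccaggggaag
Foxd1: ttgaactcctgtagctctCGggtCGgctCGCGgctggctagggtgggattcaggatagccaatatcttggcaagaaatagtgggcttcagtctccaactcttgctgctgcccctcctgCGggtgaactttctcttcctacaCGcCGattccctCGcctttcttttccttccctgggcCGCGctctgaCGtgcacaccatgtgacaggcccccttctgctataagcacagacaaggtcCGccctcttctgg
Pou3f4: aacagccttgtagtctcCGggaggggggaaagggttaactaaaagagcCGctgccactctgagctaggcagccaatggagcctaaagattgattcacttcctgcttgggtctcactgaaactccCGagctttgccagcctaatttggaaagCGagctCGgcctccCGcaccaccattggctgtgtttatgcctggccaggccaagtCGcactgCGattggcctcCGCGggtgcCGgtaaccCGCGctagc
H2afv: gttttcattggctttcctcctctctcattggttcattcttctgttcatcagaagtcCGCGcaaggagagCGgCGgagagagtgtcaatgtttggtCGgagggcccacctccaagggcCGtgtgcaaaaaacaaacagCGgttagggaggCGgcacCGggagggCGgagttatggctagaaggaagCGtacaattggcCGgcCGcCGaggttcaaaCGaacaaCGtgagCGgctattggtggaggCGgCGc
These windows held 11, 12, 13 and 19 CpG dinucleotides, against a median of 6 over 32851 windows of the same length in the table. As many or more were held by 35.6%, 33.5%, 31.5% and 19.7% of all windows, so such numbers are common. The GC content of the 4 windows was 62.4%, 57.2%, 58.0% and 57.2%, against a median of 52.4%. The letters TATAAA, searched on both strands, were in 0 of the 4 windows and in 12.4% of all windows. The letters CCAAT, searched on both strands, were in the windows of Foxd1, Pou3f4 and H2afv but not in that of Zic5, and in 33.8% of all windows. A match describes letters only.

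Zic genes encode zinc finger transcription factors of the dorsal neural tube and of periocular and other mesenchyme. Zic2 (ENSMUSG00000061524.8, chr14:122475435-122479852, plus strand) had 0.374, 0.521 and 0.585 CPM in the controls and 103, 64.6 and 72.6 CPM in the cKO libraries. Each cKO library was far above each control, and the log2 fold change was 7.30 (SE 0.28, adjusted p 0.000164, edgeR). Zic5 (ENSMUSG00000041703.7, chr14:122456795-122465677, minus strand), which lies head to head with Zic2 across a gap of 9757 bases, had 1.12, 0.348 and 0.270 CPM in the controls. Its cKO values were 31.2, 19.6 and 21.8 CPM, again without overlap, with a log2 fold change of 5.43 (SE 0.47, adjusted p 0.0134, edgeR). In TPM, Zic2 went from 0.361 to 57.4 and Zic5 from 0.265 to 12.8. Zic2 passed in all 6 fits that left out 1 library. Zic5 passed in 3, with adjusted p by edgeR of 0.144 without control library 2, 0.0512 without control library 3 and 0.0561 without cKO library 2.

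Zic1 had 0 counts in all 3 controls and 4.44, 4.86 and 21.6 CPM in the cKO libraries. Against a floor of 3 counts over the control group it was at least 190.3-fold higher, yet its adjusted p was 0.119 (edgeR), and DESeq2 called it. It was highest in cKO library 3, whereas Zic2 and Zic5 were highest in cKO library 1. Zic4 did not reach the filter.

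Foxd1 and Pou3f4 were the other transcription factor genes that rose. Foxd1 (ENSMUSG00000078302.5, chr13:98354242-98359305, plus strand) encodes a forkhead factor known from the temporal retina, the kidney stroma and the facial and optic mesenchyme. Its levels were 4.74, 2.43 and 2.66 CPM in the controls and 86.1, 45.9 and 61.5 CPM in the cKO libraries, with a log2 fold change of 4.31 (SE 0.33, adjusted p 0.00780, edgeR). The lowest cKO library stood above the highest control by a wide margin. The call was lost without control library 2 (adjusted p 0.0870, edgeR) and without control library 3 (0.0512). Pou3f4 (ENSMUSG00000056854.4, chrX:110814280-110817207, plus strand), a POU class III factor of the neural tube and of the mesenchyme around the inner ear, had 5.80, 5.74 and 8.06 CPM in the controls. It had 54.4, 65.7 and 68.4 CPM in the cKO libraries, a tight group about a log2 fold change of 3.26 (SE 0.17, adjusted p 0.00106, edgeR), and it passed whichever library was left out. Of the 4 POU class III genes tested, Pou3f4 was the 1 that passed, and Pou3f3, which is active in the upper part of the first arch, had 131, 153 and 263 CPM against 80.4, 147 and 154.

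The other genes that rose encode proteins of the cell surface and the matrix. Itih5 (ENSMUSG00000025780.7, chr2:10153571-10256529, plus strand) belongs to the family of hyaluronan-binding inter-alpha-trypsin inhibitor heavy chains. It had 26.3, 24.3 and 23.5 CPM in the controls and 86.2, 62.2 and 61.3 CPM in the cKO libraries, a log2 fold change of 1.50 (SE 0.15, adjusted p 0.0324, edgeR). Its controls lay close together, far below each cKO library, and the call held without cKO library 1 (adjusted p 0.0116, edgeR) and without cKO library 3 (0.0442). It was lost without each of the others, with 0.0855, 0.231 and 0.0976 without control libraries 1, 2 and 3 and 0.0688 without cKO library 2. Slc22a23 (ENSMUSG00000038267.15, chr13:34179158-34345182, minus strand), an orphan member of the organic ion transporter family, had 11.2, 9.15 and 9.73 CPM against 29.1, 22.8 and 25.0. Its log2 fold change was 1.35 (SE 0.15, adjusted p 0.0379, edgeR). It passed without cKO library 1 (0.0440) and had an adjusted p of 0.0855 to 0.339 without any of the other 5, the highest without control library 2 (edgeR).

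Agtr2 (ENSMUSG00000068122.10, chrX:21484544-21489164, plus strand) encodes the type 2 angiotensin receptor. It was nearly silent in the controls, with 0.125, 0.290 and 0.18 CPM, and had 4.44, 4.93 and 2.52 CPM in the cKO libraries. The log2 fold change was 4.28 (SE 0.47, adjusted p 0.0379, edgeR), from 11 counts in all over the controls. It passed without cKO library 3 (0.0442) and had adjusted p of 0.0523 to 0.225 without any of the other 5, the highest without control library 2 (edgeR). Thbd (ENSMUSG00000074743.4, chr2:148404466-148408188, minus strand) encodes thrombomodulin, a thrombin receptor best known from blood vessel lining. It had 6.18, 2.84 and 4.64 CPM in the controls against 28.3, 21.6 and 21.5 CPM, a log2 fold change of 2.39 (SE 0.28, adjusted p 0.0485, edgeR). Thbd lost its call without any 1 library, with an adjusted p of 0.0583 to 0.157 (edgeR), the highest without cKO library 2. Markers of endothelium moved in the same libraries, with a summed level of 417 to 436 CPM over 13 genes in the controls and 587 to 1138 CPM in the cKO libraries, and the part of this in the Thbd value was not tested.

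**Figure D2:**
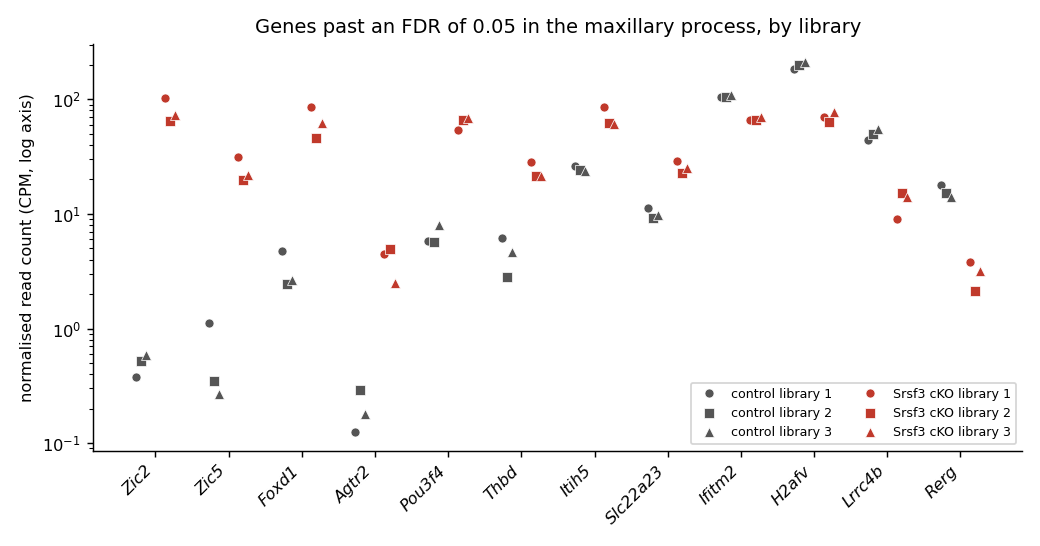
Normalised read count (CPM, log axis) in each library for the 12 genes past an FDR of 0.05, with controls in grey and cKO libraries in red. The groups did not overlap for any of the 12, and the widest gap is that of Zic2, from 0.374 to 0.585 CPM in the controls to 64.6 to 103 CPM.

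H2afv had the smallest adjusted p among the genes that fell. It encodes H2A.Z.2, a variant of histone H2A found at promoters and enhancers. H2afv (ENSMUSG00000041126.16, chr11:6427229-6444443, minus strand) had 185, 197 and 209 CPM in the controls and 69.6, 63.1 and 77.2 CPM in the cKO libraries. The highest cKO library stood far below the lowest control, and the log2 fold change was -1.49 (SE 0.10, 95% interval -1.73 to -1.26, adjusted p 0.00415, edgeR). The call was lost without control library 2 (adjusted p 0.0607, edgeR). Of the 6 genes for H2A variants tested, H2afv was the 1 that passed, and its close paralog H2afz had 667, 606 and 466 CPM in the controls against 510, 672 and 623. The RefSeq gene table lists names of a Wnt1-Cre transgene among the synonyms of this locus, which it calls H2az2. As the controls lacked the transgene, its presence and the deletion of Srsf3 cannot be told apart for this gene. Around H2afv, 0 of 16 other genes tested within 500 kb passed, against 0.0842% of all genes (edgeR). An unadjusted p under 0.05 was reached by 4 of the 16, against 12.2% of all genes (edgeR). The log2 fold changes of the 16 ran from -1.77 to 1.24. Wnt1 had 0 counts in all 6 libraries.

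Rerg (ENSMUSG00000030222.13, chr6:137054825-137170497, minus strand), a small GTPase of the Ras superfamily, had 17.8, 15.2 and 14.1 CPM in the controls and 3.82, 2.12 and 3.17 CPM in the cKO libraries. Its log2 fold change was -2.38 (SE 0.25, adjusted p 0.0324, edgeR). Lrrc4b (ENSMUSG00000047085.14, chr7:44429018-44463351, plus strand), which encodes a leucine-rich repeat protein of synaptic adhesion, had 44.4, 49.9 and 54.7 CPM against 9.04, 15.3 and 14.0. The groups lay well apart, with a log2 fold change of -1.96 (SE 0.20, adjusted p 0.0324, edgeR). Ifitm2 (ENSMUSG00000060591.9, chr7:140954837-140955987, minus strand), of the interferon-induced transmembrane family, had 104, 105 and 109 CPM against 65.4, 65.5 and 69.8. Its drop was the smallest of the 12 changes, a log2 fold change of -0.67 (SE 0.08, adjusted p 0.0426, edgeR). Each of these 3 passed in 1 of the 6 fits that left out a library, the fit without cKO library 1 (0.0213, 0.0116 and 0.0495), and their adjusted p by edgeR was highest without control library 2, at 0.225, 0.225 and 0.343. Ifitm2 has close paralogs, so its count is uncertain.

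Between an FDR of 0.05 and 0.1 stood 24 further genes, 8 higher and 16 lower. Among those that were lower, 4 are homeodomain genes of facial mesenchyme. Meis2, a TALE cofactor, had 296, 309 and 312 CPM in the controls and 78.8, 144 and 133 CPM in the cKO libraries (log2 fold change -1.36, adjusted p 0.0954, edgeR). Its relative Meis1 had 25.7, 20.0 and 24.4 CPM against 8.78, 8.07 and 11.9 (-1.29, adjusted p 0.0878, edgeR). Alx1 had 117, 111 and 93.2 CPM against 41.0, 54.7 and 54.2 (-1.10, 0.0662), and Alx4 had 320, 342 and 379 CPM against 226, 209 and 195 (-0.73, 0.0757). No cKO library of these 4 genes reached the lowest control. By DESeq2 all 4 passed, and by limma on log2(TPM + 1) Meis2 and Alx1 did.

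Among the other 12 lower genes, Eya4, a transcriptional cofactor with phosphatase activity, had 82.3, 81.9 and 65.1 CPM against 22.7, 34.5 and 30.7 (log2 fold change -1.38, adjusted p 0.0626, edgeR). Epha4, a receptor for ephrins, had 267, 293 and 322 CPM against 84.8, 101 and 143 (-1.42, 0.0750). Aldh1a2, which makes retinoic acid, had 30.8, 74.6 and 47.8 CPM against 12.8, 7.56 and 8.27 (-2.43, 0.0878). Kcnj2, an inward rectifier potassium channel whose mutation affects the face and palate in people, had 78.8, 73.3 and 41.9 CPM against 16.1, 15.4 and 8.27 (-2.28, 0.0781). Each of these had its highest cKO value below its lowest control. Capn6, a calpain without protease activity, had 300, 370 and 351 CPM against 97.3, 123 and 166 (-1.40, 0.0757). Further genes were Rnf150, Gpr17, Dpysl3, Itgb5, Sfrp2 and Mfap4, with log2 fold changes from -1.81 to -0.51.

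The 8 genes that were higher in this range included 2 with few or no counts in the controls. Myod1, which specifies skeletal muscle, had 0.0579 CPM in control library 2 and 0 in the others, against 1.91, 0.803 and 1.37 CPM. Wfdc1, a secreted protein with a whey acidic protein domain, had at most 0.0624 CPM in the controls against 3.31, 1.94 and 1.53. Pitx1, a homeodomain factor of the lower jaw and hindlimb, had 0.437, 0.927 and 0.18 CPM against 8.68, 20.2 and 53.7 (log2 fold change 5.78, SE 0.85, adjusted p 0.0901, edgeR). Its cKO libraries spread over a wide range, all far above the controls. Ebf1, a helix-loop-helix factor of several mesenchymal lineages, had 14.3, 11.8 and 6.71 CPM against 141, 71.1 and 55.1 (3.03, 0.0757). Dock5 (1.09), Col13a1 (1.35) and Cd24a (0.55, all on the log2 scale) were also in this range.

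The largest differences were then taken among genes that averaged 5 CPM or more and whose groups did not overlap, 12 in each direction, whatever their adjusted p. Of the 12 that were higher, 3 passed (Zic2, Zic5 and Foxd1), and of the 12 that were lower, 2 passed (Rerg and Lrrc4b, edgeR). The higher ones besides Zic1, Zic2, Zic5, Foxd1 and Pitx1 included Ntrk2, Ebf2, Irx2, A2m, Foxc1 and Cyp1b1. Ntrk2, the receptor for brain-derived neurotrophic factor, had 0.437, 0.579 and 0.540 CPM in the controls and 56.9, 11 and 6.35 CPM in the cKO libraries. Ebf2 had 7.49, 2.78 and 0.360 CPM against 147, 50 and 28.3. In both, cKO library 1 was far above the other cKO libraries. Irx2, an Iroquois factor, had 1.25, 0.463 and 1.31 CPM against 19.8, 9.31 and 6.02, and A2m, a protease inhibitor, had 1.37, 0.695 and 0.856 CPM against 27.8, 3.43 and 2.30. Without cKO library 1 the log2 fold change of A2m was 1.57 in place of 3.52 and that of Ntrk2 4.05 in place of 5.55.

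Of the 12 largest differences downward, the greatest was Epha8, an Eph receptor of the nervous system, with 16.3, 18.1 and 16 CPM in the controls and 1.39, 0.256 and 4.05 CPM in the cKO libraries (log2 fold change -3.19, adjusted p 0.214, edgeR). The controls agree closely and the cKO libraries do not. Smoc2, a calcium-binding matrix protein, had 14.5, 44.7 and 78.1 CPM against 4.75, 3.58 and 12.8, and Spock1, a matrix proteoglycan, had 4.55, 11.9 and 17.0 CPM against 1.39, 1.21 and 3.17. In both the control libraries themselves differed widely. Doc2b, Dlg2, Cdh4 and Dnm3, which have roles in vesicle release, synaptic scaffolds, cell adhesion and membrane scission, had log2 fold changes from -2.43 to -1.73, and Aldh1a2, Kcnj2 and Gpr17 completed the 12. None of the 10 lower genes that missed an FDR of 0.05 by edgeR had an adjusted p above 0.347, and 8 of them passed by DESeq2.

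Regional identity was described with lists of transcription factors. Beside the counts for these and later lists stand the shares over all genes. They were 12.2% at an unadjusted p under 0.05 by edgeR and 2.32% called by DESeq2. Of 16 genes of cranial neural crest mesenchyme, 12 were lower and 4 higher, with a median log2 fold change of -0.34 that was -0.24 without cKO library 1 and -0.20 without control library 1. By edgeR 0 passed, 2 were higher and 5 lower at an unadjusted p under 0.05, and DESeq2 called Meis1 and Meis2. Prrx1, a homeodomain factor of limb and face mesenchyme, had 1090, 1243 and 1203 CPM in the controls against 498, 907 and 941, without overlap. Twist1, a helix-loop-helix factor of crest mesenchyme, had 521, 597 and 657 CPM against 299, 491 and 495, also without overlap. Both were lowest in cKO library 1. Nr2f2, an orphan nuclear receptor, went the other way, with 47.2, 44.2 and 20.5 CPM against 165, 75.6 and 59.9 (log2 fold change 1.43, adjusted p 0.309, edgeR). The summed level of the 16 genes was 3300 to 3513 CPM in the controls and 2025, 2878 and 2826 CPM in the cKO libraries. In bulk tissue, fewer cells of a type and less RNA per cell cannot be told apart.

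Among 15 genes of maxillary and palatal mesenchyme, 13 were lower, with a median of -0.45 that was -0.22 without cKO library 1. None passed by edgeR (0), 1 was higher and 3 lower at an unadjusted p under 0.05, and DESeq2 called Osr1. Osr1, an odd-skipped zinc finger factor, had 36.1, 56.5 and 50.7 CPM against 15.7, 26.3 and 26.4 (log2 fold change -1.07, adjusted p 0.211, edgeR). Barx1, a homeodomain factor of the molar and palate region, had 246, 264 and 127 CPM against 29.0, 111 and 83.7 (-1.50, 0.319). For both, each cKO library was below each control. Tbx22, a T-box gene of the palatal mesenchyme, had 9.79, 7.88 and 1.04 CPM against 0.982, 2.63 and 0.657, and its groups overlapped. The LIM factors of the first arch did not follow. Lhx6 had 225, 214 and 190 CPM against 83.1, 234 and 220, and Lhx8 had 160, 134 and 117 CPM against 63.3, 190 and 190, low in cKO library 1 alone. Meox2 was the 1 gene of the list that was higher at an unadjusted p under 0.05, from 0.116 to 0.901 CPM in the controls to 1.72 to 2.30.

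All 5 mandibular genes tested were higher, with a median of 0.80. The median was 1.20 without cKO library 1 and 0.38 without cKO library 3, where 4 of the 5 were higher. With edgeR, 0 genes passed and 2 had an unadjusted p under 0.05, and these, Pitx1 and Hand2, were called by DESeq2. Hand2, a helix-loop-helix factor of the distal lower jaw, had 0.250, 0.406 and 0.315 CPM against 0.878, 2.05 and 5.20, and like Pitx1 it was highest in cKO library 3. Dlx5 and Dlx6, which specify the lower jaw downstream of endothelin, did not part the groups. Dlx5 had 22.1, 31.5 and 36.7 CPM against 14.1, 37.2 and 45.7, and Dlx6 had 3.24, 5.85 and 4.28 CPM against 2.79, 8.69 and 11.8. Endothelin pathway genes had a median of -0.11 over 6 genes that ran from -0.24 without cKO library 1 to 0.06 without control library 3, with 0 passed by edgeR, 1 at an unadjusted p under 0.05 and 0 by DESeq2. Its receptor gene Ednra had 78.4, 96.7 and 118 CPM against 60.9, 72.4 and 93.6.

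Over the 6 frontonasal genes tested the median was -0.42, with 2 higher and 4 lower. Without cKO library 1 it was -0.35, with 3 higher and 3 lower. Alx1, Alx4 and Pax3 were lower, each without overlap between the groups. Pax3, a paired-box factor of crest and muscle precursors, had 64.8, 93.3 and 110 CPM against 15.2, 34.3 and 55.6 (log2 fold change -1.35, adjusted p 0.314, edgeR). By edgeR 0 of the 6 passed and 5 had an unadjusted p under 0.05, and DESeq2 called 1 higher and 2 lower, among them Alx1 and Alx4.

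The 8 periocular genes were all higher with all libraries, with a median of 1.98. Without cKO library 1 the median was 0.86 and 5 of the 8 were higher. The edgeR test passed 0 and 4 had an unadjusted p under 0.05, and DESeq2 called Foxc1 and Cyp1b1. This list had been written with earlier results of these libraries known, so its direction is not independent evidence. Foxc1, a forkhead factor of the periocular and meningeal mesenchyme, had 18.9, 8.28 and 4.46 CPM in the controls and 195, 74.7 and 73.6 CPM in the cKO libraries (log2 fold change 3.46, adjusted p 0.118, edgeR). Its neighbour in function Foxc2 had 14.7, 4.11 and 0.450 CPM against 70.7, 35.2 and 46.0 (3.02, 0.292). Cyp1b1, a cytochrome gene of ocular mesenchyme, had 0.187, 0.521 and 1.85 CPM against 14.7, 6.14 and 7.44. These 3 genes had no overlap between groups. Lmx1b, a further ocular gene, was high in cKO library 1 alone, at 11.4 CPM against 0.0579 to 2.97 in the other libraries.

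The forkhead list of 12 genes, which includes Foxc1, Foxc2 and Foxd1, had 10 higher and 2 lower, with a median of 0.66. It was 0.13 with 6 higher without cKO library 1, 0.36 without control library 3 and 1.14 without control library 1. Foxd1 was the 1 that passed by edgeR. Foxf1, a target of Hedgehog signals, had 27.2, 18.0 and 7.07 CPM against 3.77, 6.14 and 6.68 (log2 fold change -1.65, adjusted p 0.289, edgeR). Foxl2, known from the eyelid mesenchyme and the ovary, had 110, 124 and 126 CPM against 109, 44.5 and 58.2. Foxp4 had 268, 220 and 147 CPM against 720, 321 and 344, its 3 cKO libraries all above the controls.

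Forebrain and optic neuroepithelium was looked for because Zic genes are active there. Of 17 such genes, 5 were tested, 2 higher and 3 lower, 0 passed by edgeR, 3 had an unadjusted p under 0.05 and DESeq2 called 1, which was higher. Of the 3, 2 were higher and 1 lower. Fezf2, a zinc finger gene of the forebrain, had 0.624, 0.29 and 0.225 CPM against 0.465, 1.75 and 1.81 and was on the higher side, with overlap. DESeq2 did not call Fezf2 (adjusted p 0.261). The other higher gene, not reported here, had no overlap between the groups and was the 1 that DESeq2 called. Emx2, a homeodomain gene of the cortex, was the lower one, with 6.68, 14.4 and 71.1 CPM against 2.53, 3.10 and 7.55. Sox2, a factor of neural progenitors, had 2.37, 2.61 and 2.61 CPM against 3.15, 1.46 and 0.985.

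**Figure D3:**
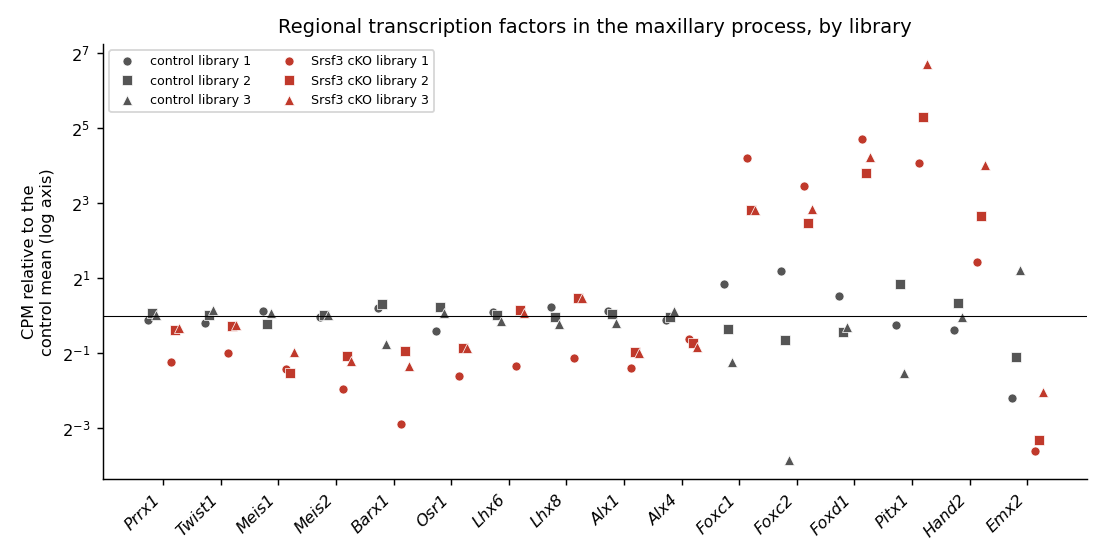
Level of 16 regional transcription factor genes in each library, as CPM relative to the mean of the 3 controls (log axis), with controls in grey and cKO libraries in red. Crest and maxillary genes on the left lie near or under 1, with cKO library 1 (circles) lowest for Prrx1, Twist1 and Barx1, while Foxc1, Foxd1, Pitx1 and Hand2 lie above the controls in each cKO library.

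Signalling genes were described by pathway, ligands and receptors first. In each of these lists 0 genes passed by edgeR, and the counts at an unadjusted p under 0.05 and by DESeq2 stand with each pathway. Over all genes, 12.2% had an unadjusted p under 0.05 by edgeR and DESeq2 called 2.32%. Hedgehog signals pattern the mesenchyme through the receptor Ptch1 and the Gli factors. Of 13 genes tested, 2 were higher and 4 lower at an unadjusted p under 0.05, and DESeq2 called 1 in each direction. The co-receptors were among the lower ones. Cdon had 136, 126 and 106 CPM against 81.3, 92.1 and 75.4 (log2 fold change -0.56, adjusted p 0.184, edgeR), and Gas1 had 344, 362 and 369 CPM against 274, 307 and 226, each without overlap. Boc had 53.8, 73.5 and 103 CPM against 37.7, 41.3 and 57.4. The direct targets Ptch1 and Gli1 had log2 fold changes of 0.05 and -0.05, while Hhip, a binding antagonist and target, had 2.56, 1.16 and 1.22 CPM against 4.13, 4.05 and 5.04 (1.43, 0.270).

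Fibroblast growth factors act through receptor tyrosine kinases on Etv, Spry and Dusp genes. Among 19 genes, 5 were higher and 3 lower at an unadjusted p under 0.05, and DESeq2 called 1 higher and 2 lower. Of the 3 lower genes, 2 are the ligand genes Fgf10 and Fgf2. Fgf10 had 23.4, 27.1 and 28.7 CPM against 13.6, 15.5 and 16.1 (log2 fold change -0.81, adjusted p 0.103, edgeR), and Fgf2 had 8.48, 9.79 and 25.3 CPM against 1.96, 5.55 and 6.46. Both had their controls above their cKO libraries. Among the higher genes were the targets Etv5, Spry4 and Etv4. Etv5 had 98.7, 75.9 and 49.0 CPM against 123, 159 and 123 (0.86, 0.285), Spry4 had 28.3, 23.1 and 20.0 CPM against 28.8, 48.2 and 36.9, and Etv4 had 48.0, 30.0 and 14.6 CPM against 72.6, 86.2 and 47.8. Dusp6, a further target, had a log2 fold change of 0.04.

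Wnt proteins signal through Fzd and Lrp receptors to Lef1 and its relatives, and R-spondins amplify them. Of 49 genes, 2 were higher and 4 lower at an unadjusted p under 0.05, against 12.2% of all genes tested. The median was 0.04 (-0.03 without cKO library 1), and DESeq2 called 3 lower. Those 3 were the secreted inhibitor Sfrp2, the ligand Wnt11 and the R-spondin Rspo3. Sfrp2 had 146, 113 and 111 CPM against 70.2, 73.3 and 66.9 (log2 fold change -0.81, adjusted p 0.0928, edgeR), and limma on log2(TPM + 1) called it. Wnt11 had 17.1, 23.8 and 21.6 CPM against 5.32, 8.73 and 10.6, and Rspo3 had 18.6, 24.6 and 27.7 CPM against 9.76, 15.2 and 9.85. In each of them all 3 cKO libraries were below the controls. Fzd7, a receptor, had 156, 145 and 132 CPM against 293, 177 and 171. The targets varied among the controls themselves. Lef1 had 311, 535 and 1059 CPM against 158, 357 and 600, and Axin2 had 194, 235 and 280 CPM against 112, 200 and 263.

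For bone morphogenetic proteins and TGF-beta, 41 genes were tested, 3 higher and 8 lower at an unadjusted p under 0.05, with a median of -0.07 (0.02 without control library 3), and DESeq2 called 2 higher and 4 lower. The ligand gene Bmp4 had a log2 fold change of -0.04. Chrdl1, a secreted antagonist, had 0.749, 0.753 and 0.766 CPM against 11.2, 3.91 and 2.96 (2.98, adjusted p 0.140, edgeR). The activin subunit gene Inhba had 1.81, 7.99 and 10.2 CPM against 0.413, 0.986 and 1.75. The responsive gene Id4 had 10.5, 10.4 and 13.4 CPM against 2.94, 6.24 and 6.57, whereas Id1, a usual readout of this pathway, had a log2 fold change of 0.15.

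Retinoic acid is made by Aldh1a enzymes and degraded by Cyp26 enzymes, and its level sets position in the face. Of 17 genes, 13 were lower, with a median of -0.24 that was -0.10 without control library 1. At an unadjusted p under 0.05, 3 were higher and 4 lower, and DESeq2 called 2 higher and 1 lower. The synthetic enzyme gene Aldh1a2 was lower by a log2 value of -2.43. The binding protein gene Crabp2 had 287, 228 and 215 CPM against 152, 195 and 162, and the receptor gene Rara had 97.7, 102 and 111 CPM against 78.9, 84.2 and 87.1, both without overlap. Among the degrading enzymes Cyp26c1 had 0.125, 0.463 and 0.0450 CPM against 12.7, 2.7 and 2.85 (log2 fold change 4.86, adjusted p 0.148, edgeR), and Cyp26a1 had 1.19, 1.74 and 0.18 CPM against 29.8, 6.94 and 0.821. The retinoid X receptor gene Rxrg had 0.998, 0.521 and 0.585 CPM against 5.42, 2.56 and 2.13.

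Eph receptors and ephrins set boundaries between cell populations. Of 20 genes, 16 were lower, with a median of -0.21 that was -0.11 with 11 lower without control library 3. There were 3 higher and 7 lower at an unadjusted p under 0.05, and DESeq2 called 1 higher and 3 lower. Besides Epha4 and Epha8, Epha3 had 74.0, 70.8 and 38.2 CPM against 30.0, 18.0 and 25.5 (log2 fold change -1.32, adjusted p 0.181, edgeR). The receptor gene Ephb1 was higher, with 0.624, 0.348 and 0.766 CPM against 7.70, 4.67 and 2.79 (3.10, 0.103). The ligand gene Efna1 had 9.30, 11.3 and 9.86 CPM against 25.8, 15.0 and 13.8. Class 3 semaphorins and their receptors, which guide axons, vessels and crest cells, had a median of -0.16 over 14 genes (0.08 without control library 3, -0.01 without cKO library 2), 3 in each direction at an unadjusted p under 0.05 and 1 called lower by DESeq2, Plxna2. Sema3c had 9.36, 9.67 and 9.64 CPM against 7.08, 4.67 and 3.61, and Plxnd1, a receptor of endothelium, had 261, 262 and 249 CPM against 585, 375 and 291.

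Notch signals pass between touching cells and serve vessels as well as mesenchyme. Of 17 genes, 13 were higher, with a median of 0.45, 7 of them at an unadjusted p under 0.05, and DESeq2 called Jag2 and Notch1. Without cKO library 1 the median was 0.33 and 10 were higher. The ligand gene Jag2 had 7.86, 6.08 and 8.24 CPM against 17.2, 13.0 and 15.7 (log2 fold change 1.04, adjusted p 0.118, edgeR). The receptor gene Notch1 had 57.6, 52.4 and 70.2 CPM against 139, 85.1 and 81.0, and Notch4, known from endothelium, had 22.4, 24.0 and 20.7 CPM against 43.5, 29.9 and 28.6. Each of the 3 parted the groups. The endothelial markers had their highest sum in cKO library 1, where Notch1 and Notch4 were also highest, and their part in these Notch values was not tested. Platelet-derived growth factor genes had a median of 0.27 over 6 genes that was 0.09 without cKO library 1, with 2 higher at an unadjusted p under 0.05 and Pdgfc called by DESeq2. Pdgfc had 31.8, 25.8 and 24.4 CPM against 48.2, 35.4 and 44.2, while the receptor gene Pdgfra had 310, 335 and 403 CPM against 433, 239 and 319.

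Insulin-like growth factor genes had a median of 0.49 over 11 genes that was -0.06 without cKO library 1, with 3 higher and 1 lower at an unadjusted p under 0.05 and 2 higher and 1 lower by DESeq2. Igf1 had 296, 328 and 318 CPM against 234, 224 and 187 (log2 fold change -0.54, adjusted p 0.148, edgeR). Igf2, an imprinted growth factor, had 571, 657 and 914 CPM against 1887, 946 and 1012, and both parted the groups in opposite directions.

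**Figure D4:**
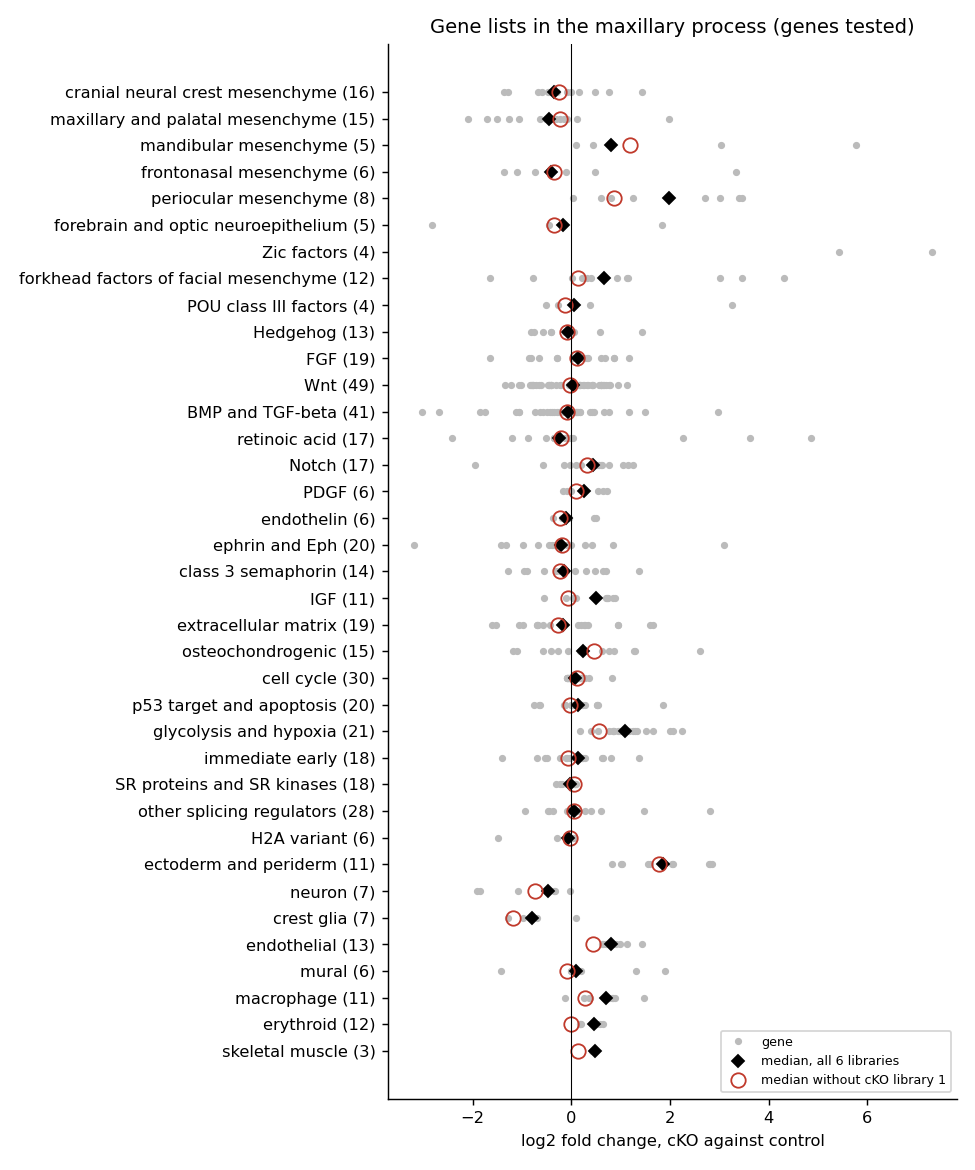
Log2 fold change (cKO against control) of the genes tested in each list (grey points, number in brackets), with the list median over all 6 libraries (black diamonds) and without cKO library 1 (red rings). Genes with 3 or fewer control counts are not drawn and no median is drawn for the Zic genes. The median of the periocular list moves from 1.98 to 0.86 and that of glycolysis and hypoxia from 1.09 to 0.55, while ectoderm stays at 1.85 and 1.78.

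Composition was read from markers of cells other than mesenchyme. Endothelial markers were higher in each of 13 genes, with a median log2 fold change of 0.79 that was 0.45 without cKO library 1. By edgeR 0 passed, although all 13 had an unadjusted p under 0.05 (12.2% over all genes), and DESeq2 called 8 (2.32% over all genes). The groups did not overlap in 12 of the 13, against 8.76% of all genes that were higher without overlap. Flt1, a receptor for vascular endothelial growth factor, had 34.3, 30.5 and 28.7 CPM against 130, 51.8 and 69.2 (log2 fold change 1.42, adjusted p 0.198, edgeR). Kdr, the main such receptor, had 77.6, 80.4 and 74.6 CPM against 226, 118 and 118, and Cdh5, the cadherin of vessel junctions, had 98.2, 105 and 111 CPM against 246, 155 and 131. Pecam1 had 46.2, 48.5 and 47.2 CPM against 118, 62.1 and 65.4. The summed level was 434, 436 and 417 CPM in the controls and 1138, 634 and 587 CPM in the cKO libraries. It was higher in each cKO library than in any control, and highest in cKO library 1.

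Of 11 macrophage genes tested, 10 were higher, with a median of 0.71 that was 0.28 without cKO library 1. With edgeR, 0 genes passed, 4 had an unadjusted p under 0.05, and DESeq2 called 0. The sums were 33.2 to 39.3 CPM in the controls and 84.9, 47.3 and 44.0 CPM in the cKO libraries. Csf1r, the receptor that macrophages need to survive, had 8.73, 8.34 and 5.40 CPM against 17.9, 9.49 and 8.32, and its groups overlapped. The 12 genes of red blood cells had a median of 0.47 with all libraries and of 0.00 without cKO library 1 (0.27 without control library 1, 0.70 without control library 2, 0.76 without cKO library 2), with 0 passed by edgeR, 0 at an unadjusted p under 0.05 and 0 by DESeq2. The embryonic globin gene Hba-x had 1490, 2369 and 1580 CPM against 4167, 1493 and 1983, so cKO library 1 alone stood out. Mural cell genes had a median of 0.10 over 6 genes that ran from -0.09 without cKO library 1 to 0.37 without control library 3, with 2 at an unadjusted p under 0.05, 0 passed by edgeR and 0 by DESeq2.

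Nerve-associated cells were on the other side. Of 7 crest glia genes tested, 6 were lower, with a median of -0.81 that was -1.19 without cKO library 1 and -0.51 without cKO library 3. The edgeR test passed 0, 3 were lower at an unadjusted p under 0.05, and DESeq2 called Foxd3. Foxd3, a forkhead factor of crest and its glia, had 9.17, 13.4 and 12.8 CPM against 7.34, 5.99 and 4.54 (log2 fold change -0.99, adjusted p 0.251, edgeR). Sox10, the defining factor of these cells, had 27.8, 37 and 40.4 CPM against 38.3, 13.6 and 13.52, and Erbb3, the neuregulin receptor, had 23.6, 31.2 and 29.5 CPM against 29.7, 10.3 and 8.37. For both, cKO library 1 was at the level of the controls and the other cKO libraries were well under it. The sums were 143 to 166 CPM in the controls and 145, 75.1 and 54.3 CPM in the cKO libraries. All 7 neuron genes tested were lower, with a median of -0.48 that was -0.73 without cKO library 1, -0.31 without cKO library 3 and -0.24 without control library 3, where 5 of the 7 were lower. By edgeR none passed (0), 2 were at an unadjusted p under 0.05 and DESeq2 called Dcx. Dcx, a microtubule protein of young neurons, had 1.87, 2.95 and 5.67 CPM against 0.982, 0.803 and 1.15, and Stmn2 had 3.62, 12.7 and 49.0 CPM against 4.86, 5.55 and 7.12. The summed neuron level was 126 to 231 CPM in the controls, highest in control library 3, and 114 to 124 CPM in the cKO libraries.

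Markers of the ectoderm, which had been digested away, were low in all libraries. Of 18 genes, 11 were tested and all 11 were higher, with a median of 1.85 (1.78 without cKO library 1). By edgeR 0 passed, 7 had an unadjusted p under 0.05, and DESeq2 called Krt18. The summed level was 19.4, 7.30 and 5.81 CPM in the controls and 37.4, 19.5 and 37.3 CPM in the cKO libraries, so that control library 1 was level with cKO library 2. Trp63, the master factor of surface epithelium, had 1.93, 0.753 and 0.901 CPM against 2.63, 1.97 and 6.24. Cdh1 had 1.75, 0.174 and 0 CPM against 3.20, 1.02 and 3.56, and its groups overlapped. Of 13 skeletal muscle genes 3 were tested. Besides Myod1, Des had 10.9, 5.27 and 1.89 CPM against 11.9, 8.40 and 4.60, and the sum over the 13 was 4.05 to 12.4 CPM in the controls and 11.55 to 22.3 CPM in the cKO libraries. The part of any of these cell types in the 12 changes was not tested.

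**Figure D5:**
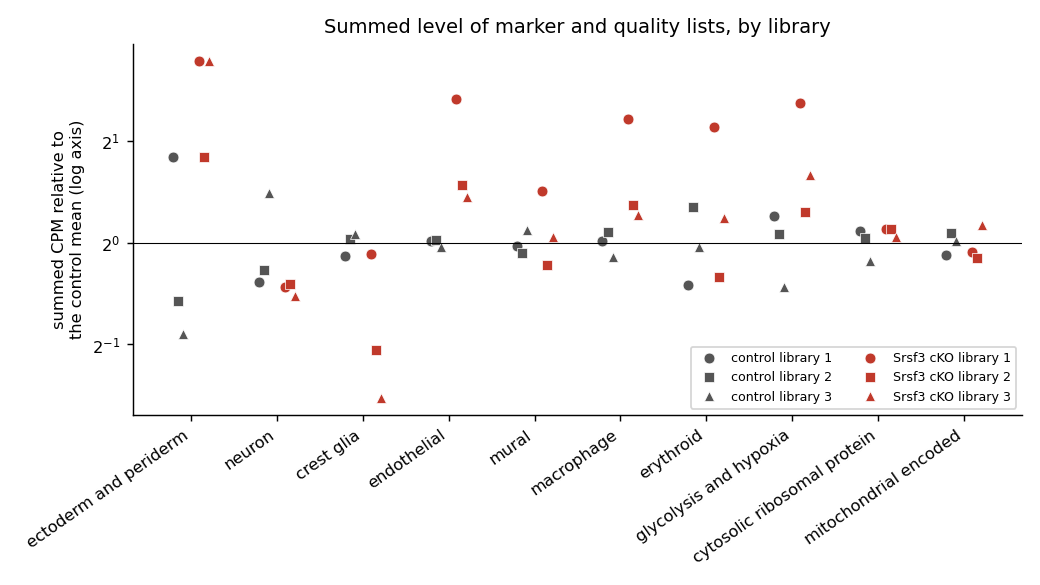
Summed level of each list in each library, as CPM relative to the mean of the 3 controls (log axis), with controls in grey and cKO libraries in red. The endothelial sum lies above the controls in all 3 cKO libraries (587 to 1138 CPM against 417 to 436), the crest glia sum lies under them in cKO libraries 2 and 3, and cKO library 1 (circles) is the highest library for endothelial, macrophage, erythroid and glycolysis genes.

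Glycolysis and hypoxia genes were higher in each of 21 members, with a median of 1.09 that was 0.55 without cKO library 1. With edgeR, 0 genes passed, 17 had an unadjusted p under 0.05 (6 without cKO library 1), and DESeq2 called 5. Ldha, which turns pyruvate into lactate, had 702, 587 and 351 CPM against 1696, 714 and 1086, and Slc2a1, a glucose transporter, had 92.0, 78.0 and 68.1 CPM against 332, 94.0 and 143. Egln3, an oxygen sensor that is itself induced by hypoxia, had 5.74, 5.56 and 3.83 CPM against 22.9, 7.23 and 13.0 (log2 fold change 1.51, adjusted p 0.280, edgeR). In all 3 the groups did not overlap but cKO library 2 was close to the controls. Vegfa, a hypoxia target that acts on vessels, had 52.0, 44.6 and 46.3 CPM against 106, 31.6 and 50.4, and its groups overlapped.

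Matrix and skeletal genes showed large spread among the controls. Extracellular matrix genes had a median of -0.17 over 19 genes that turned to 0.30 with 11 higher without control library 3. There were 1 higher and 3 lower at an unadjusted p under 0.05, 0 passed by edgeR and 1 by DESeq2. That gene was Fbn2, a microfibril fibrillin, with 360, 300 and 586 CPM against 915, 704 and 773 (log2 fold change 0.94, adjusted p 0.269, edgeR). Col1a1 had 251, 447 and 1022 CPM against 253, 202 and 418, and the groups overlapped. The skeletal list had a median of 0.24 over 15 genes that was -0.01 without control library 1, 0.00 without cKO library 3, and 0.45 without cKO library 1 and 0.44 without control library 3. There were 4 higher at an unadjusted p under 0.05, 0 passed by edgeR and 2 by DESeq2. Col2a1 had 474, 368 and 325 CPM against 956, 556 and 615, and Col9a2 had 11.54, 17.6 and 10.1 CPM against 46.2, 22.5 and 27.3, both without overlap. The bone factor Runx2 had 53.5, 125 and 217 CPM against 17.0, 56.0 and 101.

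Proliferation and stress lists stayed near 0. Of 30 cell cycle genes 22 were higher, with a median of 0.08 (0.01 without control library 3, 0.02 without cKO library 2), 0 passed by edgeR and 2 had an unadjusted p under 0.05. Those were Ccnd2 and Cdk6, and DESeq2 called Cdk6, a G1 kinase with 47.5, 44.1 and 63.2 CPM against 87.7, 95.8 and 89.7 (log2 fold change 0.82, adjusted p 0.118, edgeR). Mki67 had a log2 fold change of 0.12. Of 20 p53 target and apoptosis genes, 13 were higher, with a median of 0.13 (-0.03 without cKO library 1, 0.05 without control library 3). At an unadjusted p under 0.05 there were 3 (12.2% over all genes), and 0 were called by edgeR or DESeq2. Cdkn1a, the p21 inhibitor, had 1.19, 1.33 and 3.92 CPM against 3.93, 2.63 and 3.01. Immediate early genes, which respond to handling as well as to signals, had a median of 0.14 over 18 genes that ran from -0.07 without cKO library 1 to 0.25 without cKO library 3, with 4 at an unadjusted p under 0.05, 0 passed by edgeR and 2 by DESeq2 (Jun lower, Ccn2 higher). The 80 cytosolic ribosomal protein genes had a median of 0.11 (0.04 without control library 3) and the 13 mitochondrially encoded genes one of 0.00, with 0 passed by edgeR in either, 1 at an unadjusted p under 0.05 in each, and 1 by DESeq2, mt-Co3.

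Splicing factors were of interest because Srsf3 is one. Of 18 SR protein and SR kinase genes, 0 passed by edgeR or DESeq2, 1 had an unadjusted p under 0.05 (Srpk2), and the median was -0.03, with a turn to 0.06 without cKO library 1 and 0.01 without control library 1. Srsf7 and Srsf1, close relatives of Srsf3 in function, had log2 fold changes of -0.03 and -0.04. Of 28 other splicing regulators 0 passed by edgeR, 4 had an unadjusted p under 0.05 (12.2% over all genes) and DESeq2 called Nova1. Nova1, a neuronal splicing factor, had 10.6, 14.7 and 17.0 CPM against 5.94, 8.36 and 7.83. Ptbp2, its neighbour in neural splicing, had 219, 220 and 186 CPM against 166, 155 and 159 (log2 fold change -0.38, adjusted p 0.251, edgeR), and Esrp1, a splicing factor of epithelia that is also in the ectoderm list, had at most 0.686 CPM in the controls and 1.17 to 2.08 CPM in the cKO libraries.

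The average length of a gene's transcripts was examined as a second readout. It was taken as the estimated count divided by TPM, on the log2 scale and relative to the median gene of the library, and it moves when the mix of long and short transcripts moves. Of 11002 genes with 50 or more counts in every library, 1 passed an FDR of 0.05 (0.00909%, limma), and 5.13% had an unadjusted p under 0.05 (3.05% longer, 2.07% shorter). B4galt5, a galactosyltransferase of glycolipid synthesis, had 0.148, 0.172 and 0.116 in the controls against 0.755, 0.751 and 0.745, a shift of 0.60 towards longer transcripts (SE 0.02, adjusted p 0.00464, limma). The cKO values lay close to each other and far from the controls. Its call was lost without cKO library 2 (adjusted p 0.121, limma) and without cKO library 3 (0.0624). The annotation gives B4galt5 (chr2:167298444-167349183, minus strand) 1 transcript of 4210 bases and 3 of 361 to 425 bases. Its gene total in counts did not change past the threshold, with 32.8, 34.2 and 29.9 CPM against 36.2, 38.5 and 33.0 (log2 fold change 0.15, adjusted p 0.613, edgeR). These counts are not scaled for transcript length. In TPM, which is, B4galt5 had 19.8 ± 0.23 in the controls against 14.0 ± 0.96 in the cKO libraries (mean ± SD). By limma on log2(TPM + 1) its log2 fold change was -0.47 (adjusted p 0.290), of the opposite sign and also not past the threshold. Srsf3, for which 10 transcripts are annotated, had -0.25, -0.09 and -0.10 in the controls against -0.06, -0.01 and 0.02 (shift 0.13, SE 0.05, adjusted p 0.872, limma). The cKO values of Srsf3 were all above its controls. None of the 7 genes of the 12 that had enough counts passed this test (0, limma), and their unadjusted p was 0.187 or more.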

How the data were processed

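RNA from the maxillary process mesenchyme of 3 control and 3 cKO samples was sequenced, and the labels call them biological replicates. The submitters' processing notes name STAR 2.7.0, Salmon 1.1.0, DESeq2 1.28.1 and build mm10, without roles. The authors deposited estimated counts per gene, which were rounded to whole numbers here, and TPM values scaled for transcript length. Strand handling is not given in the sources used here. Of 53392 gene identifiers, 53355 matched GENCODE M21. Counts were tested with edgeR 4.0.16 (R 4.3.3; filterByExpr, TMM scaling, quasi-likelihood test, Benjamini-Hochberg FDR 0.05), with the 6 libraries alone. The alternatives were DESeq2 1.42.0, limma 3.58.1 on log2(TPM + pseudocount 1 or 0.1), other scalings and filters, covariates, and each library left out. Transcript length (count over TPM, log2) was tested with limma. The scripts were tested on simulated data, on which DESeq2 made more false calls than edgeR. The members and gene lists were chosen with earlier results of these data known. Genes named were those past an FDR of 0.05 or 0.1, the 12 largest non-overlapping differences in each direction among genes that averaged 5 CPM or more, and list members by smallest p or by role. Some list members were chosen after their values were seen. The labels do not say whether replicate numbers pair the samples, and the numbers were not taken as a pairing in the main fit. Some genes are not reported here.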

Additional observations from a re-analysis of the deposited data

How the results depend on the processing

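The number of genes past the threshold depended on the settings. It was 12 with edgeR, 143 with no filter on low counts, 56 with Y-linked transcripts as a covariate, 105 with all 12 libraries in 1 fit, 376 with DESeq2 and 36 at an FDR of 0.1. Leaving out 1 library gave 2 to 29. Among called genes the share that was higher was 66.7%, against 50% with limma on log2(TPM + 1), 56.2% with all 12 libraries, 44.4% at an FDR of 0.1 and 44.8% without cKO library 1. With the replicate block there were 40 genes, 55% higher. The deviations of same-numbered samples correlated at 0.080, 0.114 and 0.230. Those of differently numbered samples ran from -0.234 to 0.143, the highest for control 1 with cKO 2. These values do not settle whether the samples were paired, and the main fit used no pairing. Under the block Ifitm2 had an adjusted p of 0.0563 (edgeR), and the other 11 genes passed. The 12 genes kept their direction in 192 alternative values, 52 of which missed the threshold. For the gene total of Srsf3 the log2 fold change was -0.16 with limma on log2(TPM + 1) and on log2(TPM + 0.1), and it ran from -0.074 to 0.17 when 1 library was left out, with -0.074 without cKO library 2 and -0.004 without cKO library 3. The transcript length test called 1 gene, 2 with a minimum count of 20, 0 with the replicate block and 0 to 5 with 1 library left out. The cause of these differences was not tested. List medians were also computed with upper quartile scaling and from TPM, alternatives chosen after seeing the data. Fold changes of genes with few control counts, such as Agtr2 with 11 over the 3 controls, are imprecise. Named list genes that did not pass changed sign in some settings. When 1 library was left out their log2 fold changes ran from -0.29 to 0.21 for Bmp4, -0.54 to 0.14 for Dlx2, -0.21 to 0.46 for Dlx5, -0.28 to 0.29 for Dusp6, -0.24 to 0.31 for Gli1, -0.0748 to 0.17 for H2afz, -0.0598 to 0.76 for Hba-x and -0.0511 to 0.28 for Id1. They ran from -0.47 to 0.11 for Lhx6, -0.11 to 0.47 for Lhx8, -1.15 to 1.84 for Lmx1b, -0.32 to 0.11 for Pdgfra, -0.0656 to 0.22 for Ptch1, -0.13 to 0.0726 for Srsf1, -0.13 to 0.11 for Srsf7 and -0.22 to 0.71 for Vegfa. On the log2 scale the values with the replicate block were -0.0124 for Dlx5 and -0.0224 for Lhx8. Those with Y-linked transcripts as a covariate were -0.0124 for Dlx5 and -0.0241 for Lhx8. Those from limma on log2(TPM + 1) were -0.0703 for Dlx5 and -0.0239 for Lhx8. Those from limma on log2(TPM + 0.1) were -0.0761 for Dlx5 and -0.0251 for Lhx8.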

Other observations

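Some genes that rose or fell in the maxillary process were also measured in the 3 wild-type palatal shelf libraries of the series, at E13.5. Those tables were normalised separately, so the levels are given side by side with no comparison. Foxd1 stood at 15.0 TPM in the wild-type palatal shelf and Agtr2 at 44.0 TPM, while Zic2 stood at 0.182 TPM and Pou3f4 at 1.44 TPM. In the maxillary process the same 4 genes had 1.09, 0.104, 0.361 and 3.94 TPM in the controls and 20.8, 2.68, 57.4 and 36.4 TPM in the cKO libraries. Thbd had 11.8 TPM in the wild-type palatal shelf, and 2.10 and 10.6 TPM in the maxillary controls and cKO libraries.

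Rps2, a ribosomal protein gene with many near-identical copies, had 704, 631 and 8.02 CPM in the controls and 13.8, 16.7 and 722 CPM in the cKO libraries. Its level thus fell into a high and a low set that cut across the groups, and its counts are uncertain.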
